A study of Mus musculus with 5 samples.

Results

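The genes described here are 9 noncoding or locus-linked genes of mouse brain, chosen by name from a table of 19221 genes. They are the nuclear RNAs Malat1, Neat1 and Miat, the imprinted RNAs Meg3, Rian and Mirg, the small nucleolar RNA host gene Snhg11, and Cdr1 with C230004F18Rik, which lie on opposite strands of one locus. All 9 were in the table. The names were picked with the RPKM values of these same libraries already known, so every level and fold below is a description and none is a test. RPKM is the number of reads per kilobase of exon, scaled to the same total number of reads in each library.

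Caudate putamen was taken from C57BL/6 mice, all male and 9 weeks old, after a focal stroke made by photothrombosis. In that method laser light activates the dye rose bengal, and clots form in the lit vessels. The 4 stroke groups were sampled 4 hours, 1 day, 3 days and 10 days after the stroke, each as 1 library pooled from 6 animals. The sham group was 1 library of pooled tissue from the opposite, left side of the brain. All mice received rose bengal at 100 mg/kg, and light of 532 nm was delivered for 2 min at 30 mW through a fibre lowered 3 mm below the dura. On the sham side the light came before the dye. The sham tissue therefore comes from brains with a stroke on the other side, and the labels state neither the number of animals in it nor their times. With 1 library per group no difference has a replicate check, and no p-value or standard deviation can be given.

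Long noncoding RNAs act as RNA and are not translated. Malat1 is an abundant RNA of nuclear speckles, where splicing factors gather. Neat1 is the scaffold on which paraspeckles, another kind of nuclear body, are built. Meg3, Rian and Mirg are expressed from the maternal chromosome in the Dlk1-Dio3 imprinted domain, and their transcripts carry clusters of small RNAs. Miat, also called Gomafu, is a nuclear RNA of neurons. Snhg11 is spliced around small nucleolar RNAs. On the X chromosome, the strand opposite Cdr1 gives rise in brain to a circular RNA known as Cdr1as or ciRS-7, which binds miR-7 many times over and can be cleaved under the guidance of miR-671. No value is given here for the circular RNA, because the table was read by gene name and a linear gene's value cannot stand for it.

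The sequences of these microRNAs, from RefSeq with build GRCm38.p6, show what the locus can pair with. Capitals mark the seed, bases 2 to 8 of the microRNA, which is the part that pairs first with a target. miR-7a and miR-7b share 1 seed, and that of miR-671-5p differs.
mmu-miR-7a-5p: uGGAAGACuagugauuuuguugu
mmu-miR-7b-5p: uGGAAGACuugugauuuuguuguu
mmu-miR-671-5p: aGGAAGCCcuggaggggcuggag

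Cdr1 lies on the minus strand at chrX:61184005-61185558 in GENCODE release 21 on GRCm38, as 1 exon of 1554 bases annotated as protein coding. RefSeq gives it a longer span, chrX:61183246-61185558, of 2313 bases. C230004F18Rik is a long noncoding RNA gene on the plus strand at chrX:61116378-61292484, and its exons cover all of Cdr1. One of its annotated exons, chrX:61183248-61186174, has 2927 bases. On the plus strand this exon holds 123 copies of GTCTTCC, the letters that pair with the miR-7 seed, which is 42.0 per kilobase. The other strand of the same exon holds 0. Of the 123 matches, 79 lie over Cdr1 as GENCODE draws it and 112 over Cdr1 as RefSeq draws it. Neighbouring matches start a median of 18 bases apart, between 17 and 109. The exon holds 1 match to the miR-671-5p seed, GGCTTCC.

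The stretch of 150 bases with the most matches, chrX:61183701-61183850 on the plus strand of GRCm38, holds 9 of them, in capitals below. It is shown because it makes the spacing of the sites visible.
densest stretch: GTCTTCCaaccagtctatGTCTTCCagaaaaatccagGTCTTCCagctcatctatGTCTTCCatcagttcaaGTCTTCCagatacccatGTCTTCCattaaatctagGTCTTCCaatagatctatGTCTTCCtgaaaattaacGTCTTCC

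The sites with the most bases that can pair with miR-7a and with miR-671-5p are shown next, with the pairing bases in capitals. The miR-7a site, chrX:61183571-61183593, pairs at 16 of 23 bases. The miR-671-5p site, chrX:61186029-61186051, pairs at 19 of 23 bases and lies outside both versions of Cdr1. Both are written as the plus strand of GRCm38, and both are matches of letters, not evidence of binding.
miR-7a site: tCcAgAAAAatcCaAGTCTTCCA
miR-671-5p site: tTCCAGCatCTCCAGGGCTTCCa

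**Figure D1:**
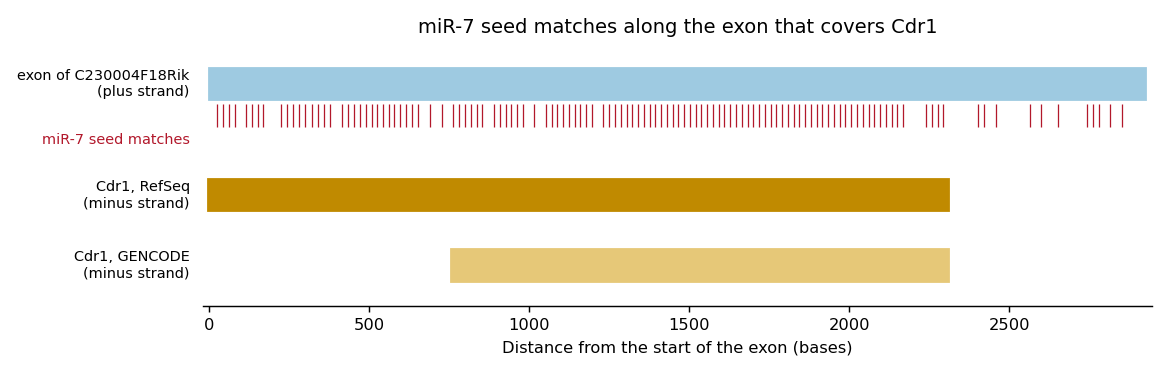
Map of the exon of C230004F18Rik that covers Cdr1, with distance from the exon's start in bases on the horizontal axis. Red ticks are the 123 matches to the miR-7 seed on the plus strand, and the boxes below give the span of Cdr1 on the minus strand in RefSeq and in GENCODE. The ticks run from base 26 to base 2851 of the exon, and 112 of them lie over the RefSeq span.

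For scale, the longest transcript of every other annotated gene was divided into windows of the same 2927 bases. This gave 16820 windows, each searched on its own strand. Transcripts shorter than 2927 bases gave no window, and leftover ends of longer ones were not searched. A match to the miR-7 seed was present in 23.6% of them, and the highest number in 1 window was 4, in Col4a4. Among the 1199 windows of long noncoding RNA genes the share was 24.4% and the highest number 3, in Gm10465. A match to the miR-671-5p seed was present in 27.7% of all windows and in 26.4% of the long noncoding ones. The longest annotated transcripts of the other genes described here were also searched. Malat1, Mirg and Cdr1 on its own strand held 0 copies of GTCTTCC, Neat1 and Miat held 1, and Meg3, Rian and Snhg11 held 2. No match in a window means only that these letters are not in it.

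Of the 9 genes, Cdr1 differed most from sham. Its level was 2.93 RPKM at 4 hours, 6.73 on day 1, 13.4 on day 3 and 16.8 on day 10, against 18.4 RPKM in sham. These levels rest on 311, 721, 1308 and 1863 reads at the 4 times, against 1910 reads in sham. Every stroke library was below sham, the 4-hour library was lowest, and each later library was higher than the one before it. In bulk tissue, fewer cells of a type and less RNA per cell cannot be told apart. The RPKM ratio to sham was 0.159 at 4 hours, with a 95% counting interval from 0.134 to 0.189, and 0.366 at day 1, with an interval from 0.323 to 0.413. It was 0.728 at day 3, from 0.658 to 0.805. At day 10 it was 0.913, from 0.833 to 1.0004, or 0.819 with median-of-ratios scaling. These intervals are exact conditional binomial intervals on the reads divided by 2, since both mates of a pair may have been counted, and they cover counting error alone. Halving the reads makes them wider, so an interval that just holds 1 does not show equal levels.

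Between neighbouring times, the Cdr1 level at day 1 was 2.30 times that at 4 hours, with an interval from 1.89 to 2.78. The level at day 3 was 1.99 times that at day 1, from 1.75 to 2.27, and the level at day 10 was 1.25 times that at day 3, from 1.13 to 1.39. The highest and the lowest of the 5 libraries differed 6.28-fold, from 5.28 to 7.47, against 1.73-fold to 3.04-fold for the 8 other genes.

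On the scale used for all genes, log2((stroke RPKM + 1) / (sham RPKM + 1)), the fold of Cdr1 was -2.30 at 4 hours, -1.33 on day 1, -0.43 on day 3 and -0.12 at day 10. The added 1 RPKM understates the folds of genes with low levels. Genes were counted as beyond 2-fold at a log2 fold of at least 1 or at most -1, among the 12783 genes that reached 1 RPKM in some library. Cdr1 was the 1 member beyond that limit at 4 hours, where it was lower, as were 1.09% of the genes analysed, and 15 of them had a lower fold. It was also the 1 member beyond it at day 1, where 1.35% of genes were lower by that rule and 54 had a lower fold than it. Neat1, Miat and C230004F18Rik stayed below 1 RPKM in all libraries, where the added 1 RPKM keeps any fold short of the limit. At day 3 and at day 10, 0 of the 6 members analysed were beyond the limit in either direction, against 9.66% and 4.37% of all genes. Higher by that limit were 0 of the 6 at each time. The share of all genes was 2.2% at 4 hours, 3.33% on day 1, 9.04% on day 3 and 4.2% at day 10. Lower by it were 0.618% of all genes at day 3 and 0.172% at day 10. The 4 comparisons share the sham library, so they are not independent of each other.

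Scaling bears on these values, because RPKM takes all reads of a library as its base. Median-of-ratios scaling, which sets each library so that its median gene matches that of the others, has log2 factors against sham of 0.37 at 4 hours, -0.11 on day 1, 0.14 on day 3 and 0.16 on day 10. A positive factor lowers the stroke levels by that amount. Under it the folds of Cdr1 were -2.57, -1.23, -0.56 and -0.27. At 4 hours 281 genes lay above the limit and 139 below it as deposited, against 78 above and 243 below with median-of-ratios scaling. At day 1 the split was 426 higher and 172 lower as deposited, against 580 and 133. At day 3 it was 1156 higher and 79 lower, against 602 and 181 of 10628 genes once mitochondrial, ribosomal, small RNA and predicted genes were left out and the rest rescaled.

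C230004F18Rik, the gene on the opposite strand, was not lower at the early times as Cdr1 was. Its level was 0.866 RPKM at 4 hours, 0.581 on day 1, 0.610 on day 3 and 0.474 on day 10, against 0.562 RPKM in sham. At the smallest gene length that gives whole reads, these are 145, 98, 94, 83 and 92 reads in that order. A longer length would give more reads and narrower intervals for this gene. The 4-hour library was highest and the rest lay close together. The RPKM ratio to sham at 4 hours was 1.54, with a counting interval from 1.04 to 2.27, and the intervals at the 3 later times hold 1. Its fold at 4 hours was 0.26, or 0.10 with median-of-ratios scaling. With a highest level of 0.866 RPKM it did not pass the filter, like Neat1 and Miat, so 6 of the 9 genes are among those analysed.

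Within a library the scaling cancels, so the ratio of the RPKM values given under both names does not depend on it. That ratio does not separate the strands, since reads over Cdr1 may come from either. Cdr1 was at 3.38 times the level of C230004F18Rik at 4 hours, 11.6 times on day 1, 21.9 times on day 3 and 35.4 times on day 10, against 32.7 times in sham. The counting interval at 4 hours ran from 2.57 to 4.58, and that in sham from 24.3 to 45.0. The intervals at 4 hours and at day 1, the second from 8.57 to 15.9, lay wholly below that of sham, and those at day 3 and day 10 overlapped it.

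These reads cannot be assigned to a strand. The use of strand in counting was not stated, and reads over Cdr1 may come from the Cdr1 transcript or from RNA of the plus strand, linear or circular. The RPKM values of Cdr1 give whole read numbers with a length of 2313 bases, the RefSeq span. For C230004F18Rik the smallest length that gives whole numbers is 3644 bases, and multiples of it do so too. It is less than the GENCODE exon of 19035 bases over Cdr1, chrX:61175128-61194162. In sham 1910 reads were counted for Cdr1, and at that smallest length 92 for C230004F18Rik. At that length, most reads over Cdr1 were not also counted for its partner.

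**Figure D2:**
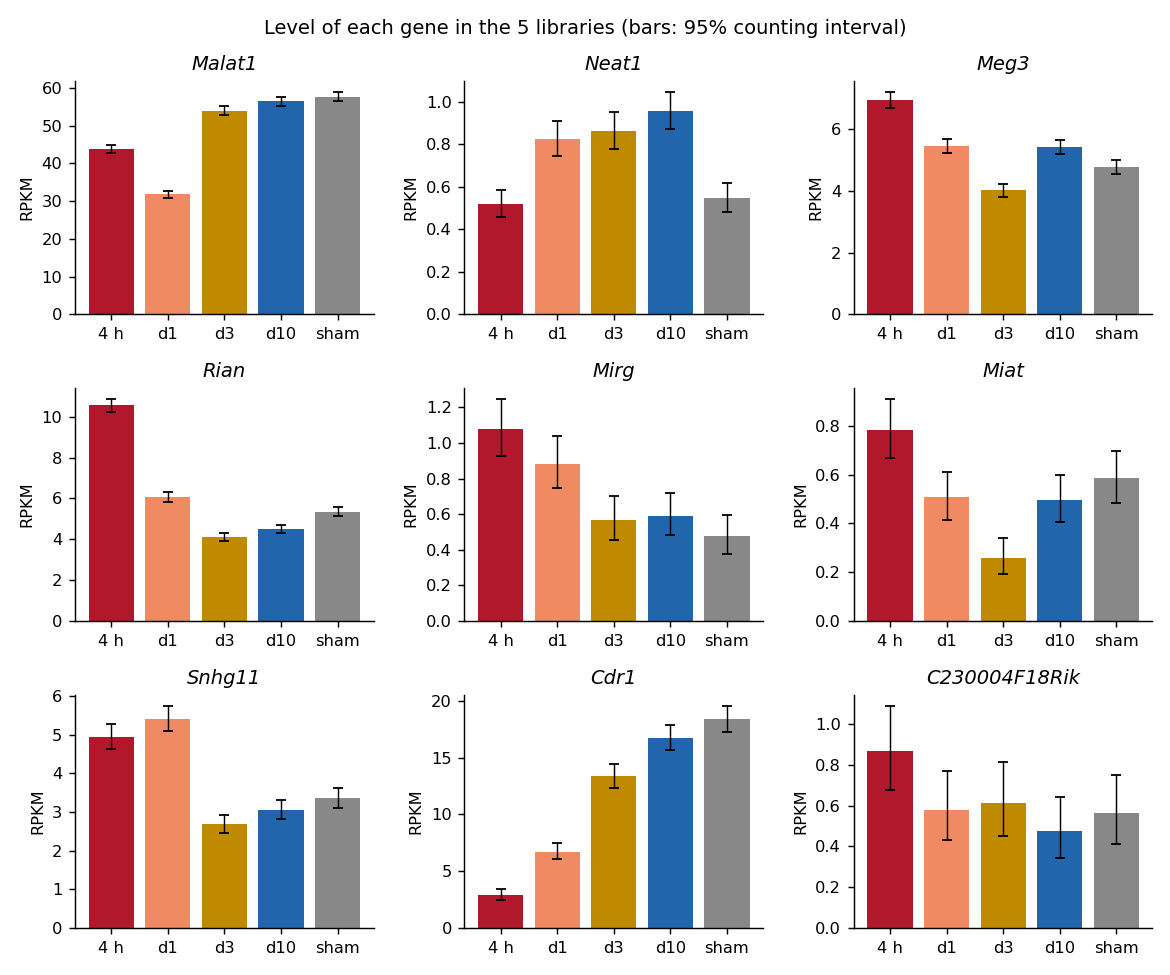
Level of each of the 9 genes in RPKM, with 1 bar per library, from 4 hours to day 10 after stroke and then sham at the right. Error bars are 95% counting intervals and hold no difference between animals. Cdr1 climbs from 2.93 RPKM at 4 hours towards the 18.4 RPKM of sham, Malat1 is lowest at day 1 as deposited, and Rian is highest at 4 hours.

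Malat1 had the highest level of the 9 genes in every library, above at least 88.6% of the genes analysed. It lies on the minus strand at chr19:5795690-5802672 as 1 exon of 6983 bases. Its level was 43.7 RPKM at 4 hours, 31.8 on day 1, 53.9 on day 3 and 56.5 on day 10, against 57.7 RPKM in sham. As deposited, the day 1 library was lowest and the 4-hour library next, while day 10 and sham did not differ beyond counting error on the halved reads. The ratio to sham was 0.758 at 4 hours, from 0.735 to 0.782, and 0.551 at day 1, from 0.532 to 0.570. From day 1 to day 3 the level differed 1.70-fold, with day 3 higher. The log2 folds at 4 hours and day 1 were -0.39 and -0.84 as deposited, and -0.75 and -0.74 with median-of-ratios scaling, under which the order of these libraries is not kept. All are short of the 2-fold limit.

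Annotations that lie over parts of Malat1 differed at day 1. Gm37376, annotated on the opposite strand, lies wholly over bases 280 to 732 of Malat1, and its reads cannot be told apart from those of Malat1. Its level was 41.2 RPKM at 4 hours, 76.1 on day 1, 60.5 on day 3 and 60.0 on day 10, against 56.5 RPKM in sham. At day 1 it was thus higher than in sham, 1.35-fold with a counting interval from 1.21 to 1.501, where the whole gene was lower. Gm27694, a small RNA annotation on the same strand over bases 3588 to 3673, had 33.65, 13.30, 36.04 and 33.18 RPKM at the 4 times, against 32.4 RPKM in sham. Its ratio at day 1 was 0.411, from 0.255 to 0.662, on 53 reads at day 1 against 125 in sham. The day 1 library therefore differs from sham in opposite directions over these stretches of 453 and 86 bases, and the source of these reads was not tested.

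Neat1 lies on the same strand close by, at chr19:5824708-5845478, and its longest annotated transcript has 20771 bases. Its level was 0.519 RPKM at 4 hours, 0.825 on day 1, 0.862 on day 3 and 0.957 on day 10, against 0.549 RPKM in sham. As deposited, the 4-hour level matched sham within counting error, and the 3 later libraries were higher. With median-of-ratios scaling the ratios to sham were 0.730, 1.62, 1.42 and 1.56 at the 4 times. The match at 4 hours and the order of the later libraries thus depend on the scaling. The ratio to sham was 1.504 at day 1, from 1.28 to 1.77, 1.57 at day 3, from 1.34 to 1.85, and 1.74 at day 10, from 1.49 to 2.04. The steps from day 1 to day 3 and from day 3 to day 10 have intervals that hold 1. Because the level is below 1 RPKM, the log2 folds with the added RPKM were only -0.03, 0.24, 0.27 and 0.34. The authors' deposited GFOLD values, which are log2 folds drawn towards 0 for genes with few reads, were 0, 0.40, 0.46 and 0.62 for Neat1.

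The RPKM of Neat1 divides by its full annotated length, and the signal was not even along it. The small RNA annotations Gm28006, Gm27505 and Gm27533 lie within the first 1193 bases of the gene, a part shared by the longest transcript and by a shorter one that starts close to the same base. Gm28006, over bases 442 to 563, had 3.92 RPKM at 4 hours, 7.25 on day 1, 5.82 on day 3 and 10.9 on day 10, against 3.47 RPKM in sham. These levels are between 6.32 and 11.4 times that of the whole gene in the same library. At day 10 the ratio to sham was 3.15 for Gm28006, with a wide interval from 1.55 to 7.92, and 3.43 for Gm27505, from 1.35 to 10.3. For Gm27533 it was 1.67, with an interval that holds 1. These stretches are short, with 12 to 64 reads each in the sham and day 10 libraries.

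Set against each other within a library, Neat1 and Malat1 moved apart. Neat1 was at 1.19% of the Malat1 level at 4 hours, 2.596% on day 1, 1.60% on day 3 and 1.69% on day 10, against 0.951% in sham. The share was highest at day 1, where Neat1 was already above sham and Malat1 below it.

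The proteins of the same nuclear bodies were read for comparison. Of 10 paraspeckle protein genes analysed, 0 were beyond 2-fold at any time, and their median log2 fold was 0.31 at 4 hours, -0.04 on day 1, 0.00 on day 3 and 0.09 at day 10. With median-of-ratios scaling the sign of that median changed at day 1 and at day 10. The median of all genes was 0.28, -0.02, 0.12 and 0.07. Nono, a core paraspeckle protein, had 19.4 RPKM at 4 hours against 11.2 RPKM in sham. The nuclear speckle protein genes had medians of 0.43, 0.08, 0.10 and 0.10. Of 11 analysed, 1 was beyond 2-fold at 4 hours and 1 at day 1, both higher, against 2.2% and 3.33% of all genes. With median-of-ratios scaling 0 were at 4 hours, where Srsf5 was at 0.73, and the medians at day 3 and day 10 changed sign to -0.01 and -0.04. The splicing factor gene Srsf5 had 18.02 RPKM at 4 hours against 7.98 in sham, and Srsf11 had 3.41 RPKM at day 1 against 1.00 in sham.

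**Figure D3:**
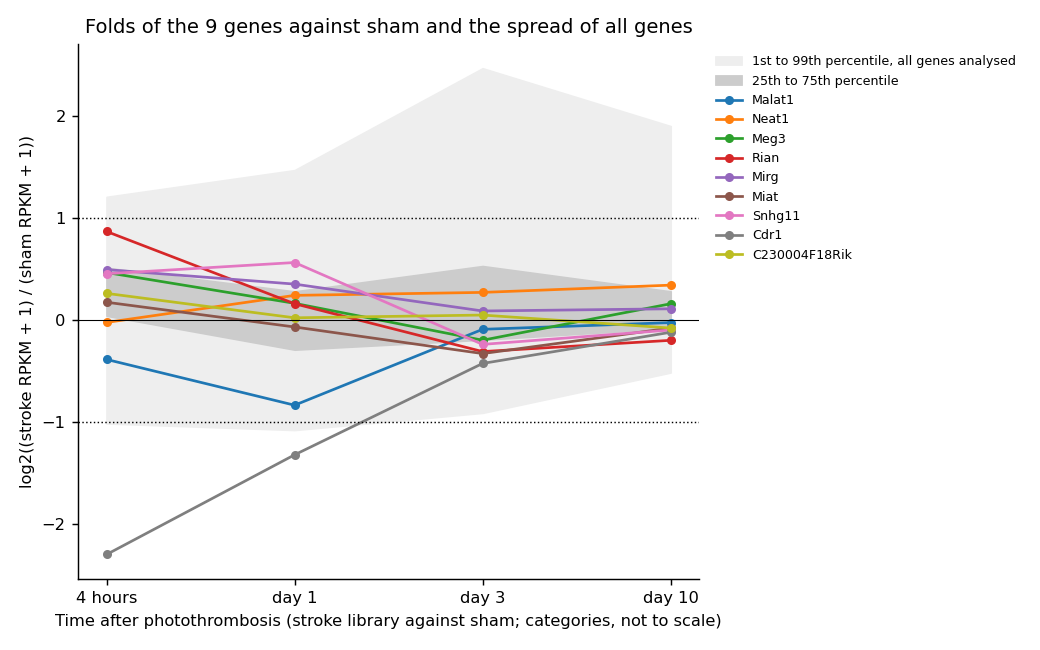
Log2 fold against sham, with 1 RPKM added to both levels, for the 9 genes at the 4 times after stroke. Grey bands hold the middle of all 12783 genes analysed, from the 25th to the 75th and from the 1st to the 99th percentile, and dotted lines mark the 2-fold limits. Cdr1 lies below the lower line at 4 hours and day 1 at -2.30 and -1.33, Malat1 is at -0.84 at day 1, and Rian is nearest the upper line, at 0.86 at 4 hours.

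Meg3, Rian and Mirg follow each other on the plus strand of chromosome 12. Meg3 lies at chr12:109541001-109571726, Rian at chr12:109603940-109661716 and Mirg at chr12:109729764-109749460. The annotation places 2 microRNA genes inside Meg3, 4 microRNA and 13 small nucleolar RNA genes inside Rian, and 15 microRNA genes inside Mirg. Meg3 is known as a growth-restraining RNA, and Rian and Mirg are known mainly as hosts of these small RNAs. All 3 were above sham at 4 hours, by unequal amounts and under each scaling. None of them was beyond 2-fold by the log2 rule. Without the added RPKM, the ratio of Mirg to sham at 4 hours was 2.25 as deposited, but 1.74 with median-of-ratios scaling. The protein-coding genes Dlk1, Rtl1 and Dio3 of the same domain stayed below 1 RPKM in all 5 libraries.

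Rian showed the widest range of the 3. Its level was 10.55 RPKM at 4 hours, 6.07 on day 1, 4.11 on day 3 and 4.51 on day 10, against 5.35 RPKM in sham. The 4-hour and day 1 libraries were above sham and the later 2 below it. The ratio to sham was 1.97 at 4 hours, from 1.87 to 2.08, and 0.768 at day 3. The log2 fold at 4 hours was 0.86, or 0.53 with median-of-ratios scaling, and 601 of the genes analysed had a higher one. The level at day 1 was 0.575 times that at 4 hours, and that at day 3 was 0.677 times that at day 1.

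Meg3 had 6.93 RPKM at 4 hours, 5.43 on day 1, 4.01 on day 3 and 5.42 on day 10, against 4.76 RPKM in sham. As deposited it was highest at 4 hours and lowest at day 3, the 1 time below sham. The ratio was 1.46 at 4 hours, from 1.37 to 1.54, and 0.841 at day 3, from 0.786 to 0.900. With median-of-ratios scaling the log2 fold at 4 hours was 0.14 in place of 0.46, which is less than the 0.25 at day 1. Gm26906, a gene on the opposite strand that shares 1228 exon bases with Meg3, had 7.41, 5.91, 2.83 and 3.77 RPKM at the 4 times, against 4.11 RPKM in sham. Its levels lay near those of Meg3, so reads of both may be the same reads.

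Mirg, the lowest of the 3, had 1.08 RPKM at 4 hours, 0.882 on day 1, 0.568 on day 3 and 0.591 on day 10, against 0.479 RPKM in sham. Its levels rest on 361, 298, 175 and 207 reads, against 157 reads in sham. Every stroke library was above sham, but at day 3 and day 10 not beyond counting error. The ratio was 2.25 at 4 hours, from 1.72 to 2.98, and 1.84 at day 1, from 1.40 to 2.47. The log2 folds with the added RPKM were 0.49 and 0.35 at those times, or 0.31 and 0.40 with median-of-ratios scaling, and the authors' deposited GFOLD values for Mirg were 0.85 and 0.55.

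As deposited, the levels of the 3 neighbours went the same way at each step from 1 time to the next. For Mirg, however, the intervals of the steps from 4 hours to day 1 and from day 3 to day 10 hold 1. With median-of-ratios scaling Rian was lower at day 1 than at 4 hours, with folds of 0.25 and 0.53, while Meg3 and Mirg were higher. Scaling cancels within a library, and ratios within a library show that the sizes differed. Rian was at 1.52 times the Meg3 level at 4 hours, 1.12 times on day 1, 1.02 times on day 3 and 0.833 times on day 10, against 1.12 times in sham. The counting intervals at 4 hours, from 1.45 to 1.60, and at day 10, from 0.784 to 0.885, do not overlap that of sham, from 1.06 to 1.19. Mirg was at 0.102 times the Rian level at 4 hours, 0.145 on day 1, 0.138 on day 3 and 0.131 on day 10, against 0.0896 in sham. The share of Mirg was thus lowest in sham and at 4 hours.

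**Figure D4:**
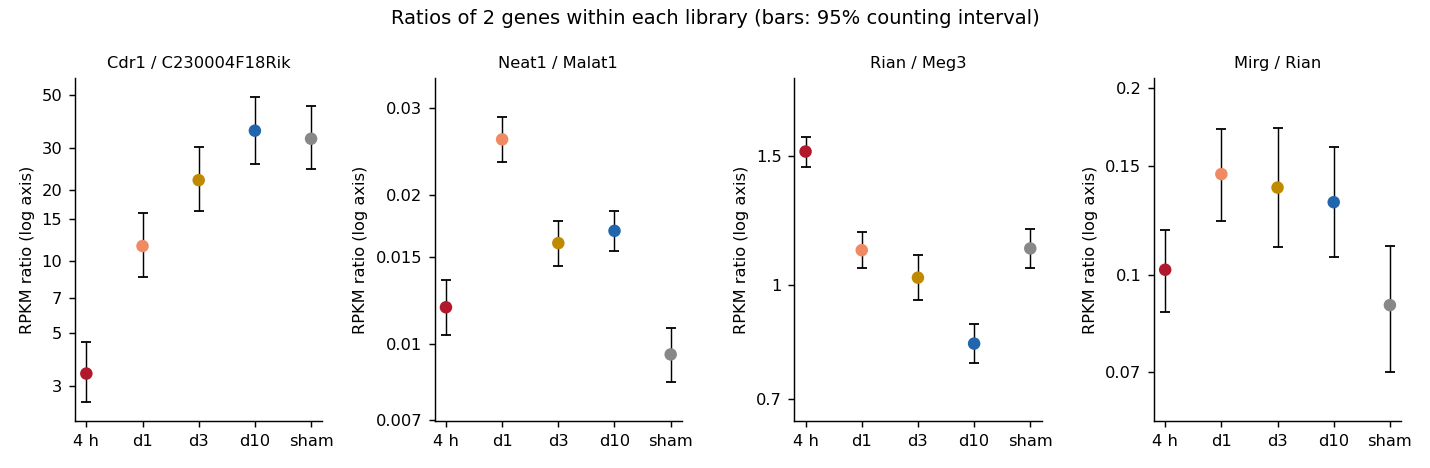
Ratio of the RPKM values of 2 genes inside each library, on logarithmic axes, with 95% counting intervals as bars, for the 4 stroke times and then sham at the right. Cdr1 over C230004F18Rik climbs from 3.38 at 4 hours to 35.4 on day 10, against 32.7 in sham. Neat1 over Malat1 peaks at day 1, Rian over Meg3 is highest at 4 hours and lowest at day 10, and Mirg over Rian is lowest in sham.

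Miat, on the minus strand at chr5:112213228-112229395, was low in all libraries. It had 0.782 RPKM at 4 hours, 0.506 on day 1, 0.257 on day 3 and 0.495 on day 10, against 0.584 RPKM in sham. Its reads numbered 334, 218, 101 and 221 at the 4 times, against 244 in sham. The 4-hour library was highest and the day 3 library lowest, while day 1, day 10 and sham lay within counting error of each other. The ratio to sham at 4 hours was 1.34, from 1.05 to 1.70, or 1.03 with median-of-ratios scaling. The ratio at day 3 was 0.440, from 0.307 to 0.610, and the level at day 10 was 1.93 times that at day 3. The log2 fold with the added RPKM at day 3 was only -0.33, and the authors' deposited GFOLD value for Miat was -0.79. Gm26953, on the opposite strand, shares 2260 exon bases with Miat and had 0.370, 0.186, 0.104 and 0.133 RPKM, against 0.226 RPKM in sham.

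Snhg11, on the plus strand at chr2:158375638-158386145, hosts 2 small nucleolar RNA genes and is typed as protein coding in GENCODE and as a long noncoding RNA in RefSeq. Its level was 4.95 RPKM at 4 hours, 5.42 on day 1, 2.68 on day 3 and 3.06 on day 10, against 3.36 RPKM in sham. The first 2 libraries were above sham and the later 2 below it. At day 10 the ratio was 0.911, from 0.816 to 1.02, or 0.817 with median-of-ratios scaling. As deposited, the ratio was 1.47 at 4 hours, from 1.33 to 1.63, and 1.61 at day 1, from 1.46 to 1.79. It was 0.798 at day 3, from 0.708 to 0.900. With median-of-ratios scaling the ratios at 4 hours, day 1 and day 3 were 1.14, 1.74 and 0.724. The level at day 3 was 0.495 times that at day 1.

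The day 1 level of Snhg11 can be set beside the other small nucleolar RNA host genes, a class whose spliced RNAs are usually short-lived. Of 20 such genes listed, 14 were analysed, Snhg11 included. All 14 had a log2 fold above 0 on day 1, and the median was 0.78, against -0.02 for all genes. At least 2-fold higher at that time were 3 of them, against 3.33% of all genes. With median-of-ratios scaling 6 passed that limit, as did 580 of 12783 genes, and the median at day 1 was 0.88. At 4 hours, day 3 and day 10 the medians were 0.31, 0.19 and 0.09, the last of which changed sign with that scaling, with 0 genes beyond 2-fold. Zfas1 had 26.6 RPKM at day 1 against 11.5 RPKM in sham. Epb41l4aos had 9.24 RPKM at day 1 against 3.68 in sham, Snhg15 had 3.00 against 0.835, and Snhg5 had 2.77 against 0.926. Snhg11, with a fold of 0.56, lay below the median of the list at that time.

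Long noncoding RNA genes as a class numbered 923 beside the 9. Of these, 27 were higher and 2 lower by 2-fold at 4 hours, 31 and 16 on day 1, 51 and 7 at day 3, and 30 and 1 at day 10. The shares beyond 2-fold were 3.14%, 5.09%, 6.28% and 3.36%, against 3.29%, 4.68%, 9.66% and 4.37% of all genes. The class medians were 0.24, -0.05, 0.03 and 0.01. With median-of-ratios scaling the numbers above and below the limits were 7 and 6 at 4 hours, 41 and 15 on day 1, 42 and 10 on day 3, and 23 and 1 on day 10, and the medians were 0.00, 0.02, -0.06 and -0.09.

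Reported targets of miR-7 were read because of the sites shown above. Of 9 listed, 5 were analysed, and their median log2 fold was 0.72 at 4 hours, or 0.40 with median-of-ratios scaling, 0.13 on day 1, -0.20 on day 3 and -0.03 at day 10. Pak1, a kinase of the cytoskeleton, was the 1 gene beyond 2-fold, with 23.8 RPKM at 4 hours against 11.3 RPKM in sham. Of all genes, 2.2% were at least 2-fold higher at that time. With median-of-ratios scaling the Pak1 fold of 0.65 was short of the limit. Rela, an NF-kappaB subunit, had 9.31 RPKM at day 3 against 5.33 in sham. Whether these levels have any tie to Cdr1 or to miR-7 was not tested.

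Markers of cell types differed between the libraries as well, and no listed marker that was analysed stood at 0 in any library. Markers of striatal projection neurons, which make up most neurons of the caudate putamen, were all present. Their summed level was 2538 RPKM at 4 hours, 985 on day 1, 1488 on day 3 and 1693 on day 10, against 1980 RPKM in sham. Of these 14 genes, 0 were beyond 2-fold at 4 hours, 7 were lower at day 1, 2 on day 3 and 0 at day 10, with medians of 0.34, -0.995, -0.54 and -0.18. Lower by 2-fold were 1.35% of all genes at day 1 and 0.618% at day 3. The dopamine receptor gene Drd1 had 10.1 RPKM at 4 hours, 2.68 on day 1, 4.25 on day 3 and 6.30 on day 10, against 7.596 RPKM in sham. The summed level at 4 hours is as deposited and rests on a few genes of high level, such as Penk with 836 RPKM against 432 in sham. With median-of-ratios scaling the median at 4 hours was -0.01, with 7 markers above 0 and 7 below. Whether these markers have any tie to the low Cdr1 level at 4 hours was not tested. At day 1 Cdr1 and Malat1 were lower than in sham, and so were 13 of these 14 markers, Tac1 being above it. With median-of-ratios scaling 4 of the 14 were lower by 2-fold at day 1 in place of 7.

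General neuron markers summed to 579 RPKM at 4 hours, 353 on day 1, 356 on day 3 and 362 on day 10, against 388 RPKM in sham. Much of the 4-hour sum came from Thy1 and Tubb3, with 218 and 164 RPKM. The median log2 fold at 4 hours was 0.57, or 0.21 with median-of-ratios scaling. With that scaling 7 of the 11 neuron markers analysed were above 0 and 4 below. Markers of cortical excitatory neurons, a cell type of the neighbouring cortex, had medians of 0.70, 0.48, -0.13 and -0.22. Their 7 genes all had folds above 0 at 4 hours and at day 1. Rian and Snhg11 were above sham at those times and below it later, while Meg3 was above sham at day 10 as well and Mirg at every time. Nrn1, the leading gene of that list, had 12.2 RPKM at 4 hours, 6.97 on day 1, 3.16 on day 3 and 3.50 on day 10, against 3.37 RPKM in sham. Oligodendrocyte markers had a median of 0.84 at 4 hours, or 0.47 with median-of-ratios scaling, and 3 of 9 genes were at least 2-fold higher there. Of all genes, 2.2% were at least 2-fold higher at that time. Mog, a myelin gene, had 105 RPKM at 4 hours against 33.2 in sham.

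Of the choroid plexus markers, 3 of 4 analysed genes passed the 2-fold limit upwards at 4 hours, against 2.2% of all genes. Ttr, which encodes transthyretin, had 729 RPKM at 4 hours, 303 on day 1, 19.6 on day 3 and 0.205 on day 10, against 77.4 RPKM in sham. The list did not go 1 way at day 10, where 1 gene was higher by 2-fold and 1 lower. The higher one, Aqp1, had 2.45 RPKM at day 10 against 0.195 in sham. Microglia and macrophage markers were higher at day 3 and day 10, and Neat1 was higher at these times and already at day 1, when the median of the markers was -0.22. Their summed level was 299 RPKM at 4 hours, 423 on day 1, 2752 on day 3 and 3152 on day 10, against 385 RPKM in sham. At day 3 and day 10, 10 and 12 of the 12 genes were 2-fold or more above sham, against 9.04% and 4.2% of all genes. Endothelial markers had medians of -0.26, 0.04, 0.61 and 0.26. Astrocyte markers had medians of 0.22, which changed sign with median-of-ratios scaling, -0.32, -0.33 and 0.25. Of 9 analysed, 7 had folds below 0 at day 1 and 6 at day 3. Gfap went the other way from these, with 26.3, 272, 509 and 234 RPKM at the 4 times, against 102 RPKM in sham. The part of any of these cell types in the levels of the 9 genes was not tested.

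**Figure D5:**
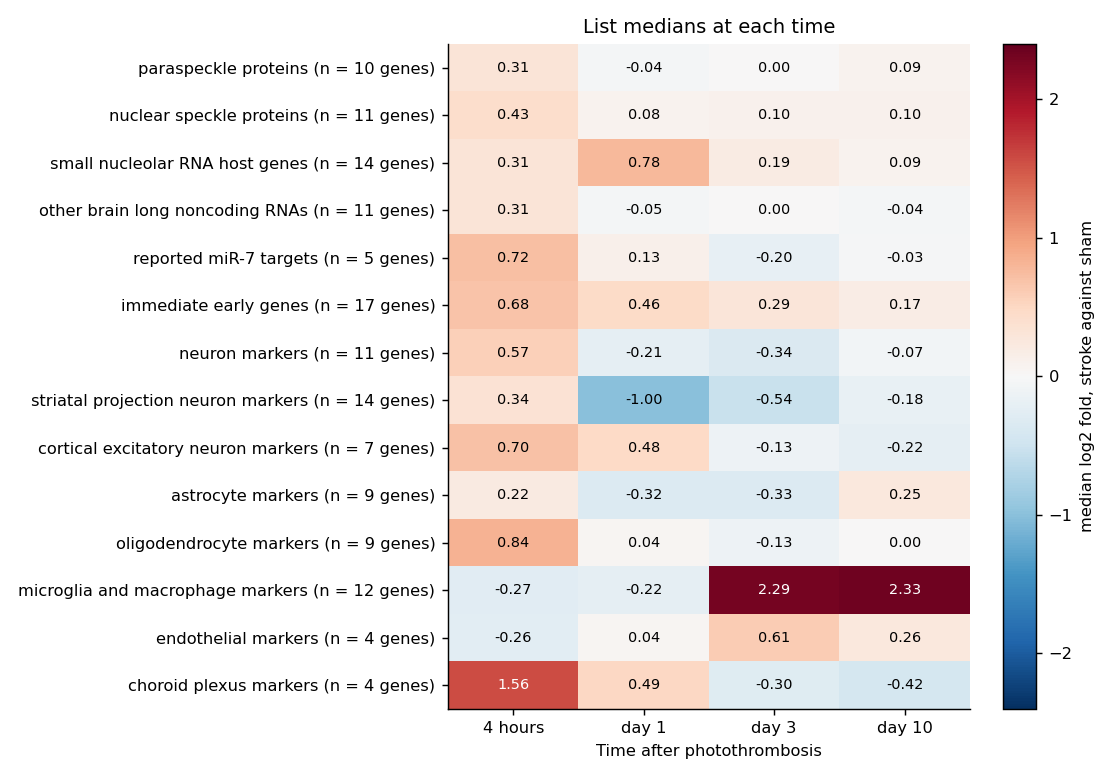
Median log2 fold against sham of 14 gene lists, in rows, at the 4 times after stroke, in columns, with the number of genes analysed beside each name. Red is higher and blue lower than sham. Microglia and macrophage markers reach 2.29 and 2.33 at day 3 and day 10, striatal projection neuron markers are lowest at day 1 at -0.995, and small nucleolar RNA host genes are highest at day 1 at 0.78.

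Immediate early genes, switched on within minutes to hours of stimulation, were also read. Of 17 analysed, 8 were at least 2-fold higher at 4 hours, 5 on day 1, 2 on day 3 and 1 at day 10. With median-of-ratios scaling 5 were at 4 hours, and the later counts were the same. As deposited, the share of all genes at least 2-fold higher was 2.2%, 3.33%, 9.04% and 4.2% at the 4 times. Atf3 had 5.48 RPKM at 4 hours, 16.4 on day 1, 9.49 on day 3 and 3.62 on day 10, against 0.961 RPKM in sham. Npas4, a factor of neuronal activity, had 9.36 RPKM at 4 hours against 1.39 in sham.

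For each of the 9 genes, the 2 genes of nearest pattern were found among 3533 genes with a mean of at least 10 RPKM, by the root mean square difference of the 4 log2 folds. Each of these folds shares the sham library, so this likeness describes 5 libraries only. Neat1, Mirg, Miat and C230004F18Rik are left out here, since the added 1 RPKM shrinks their folds and not those of genes at 10 RPKM or more, so that a likeness could come from it. Of the others, Rian had the closest neighbour, Snrpn at 0.03, followed by Tusc3 at 0.06. The added 1 RPKM also shrinks the folds of Rian, Meg3 and Snhg11, though by less. With 0.1 RPKM added, the 4-hour fold of Rian was 0.97 in place of 0.86. Part of their likeness to genes of higher level could therefore come from it. Snrpn, an imprinted gene of another chromosome that encodes a small ribonucleoprotein, had 217, 131, 98.0 and 102 RPKM at the 4 times, against 117 RPKM in sham. For Meg3 the nearest were Dnajb2 at 0.08 and Mgll at 0.09, while Snhg11 was nearest to the pseudogene Gm13408 at 0.06 and to LOC100041504 at 0.08.

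Malat1 stood farther from its nearest genes, Gm22988 at 0.13 and Prrc2a at 0.15. Gm22988, typed as a small nucleolar RNA, had 25.2, 15.3, 30.1 and 33.0 RPKM, against 33.9 RPKM in sham. Cdr1 had no close neighbour by this measure. The nearest were n-R5s106 and n-R5s118, typed as ribosomal RNA, at 0.53 and 0.54. The n-R5s106 gene had 8.78, 15.4, 35.4 and 95.9 RPKM at the 4 times, against 57.1 RPKM in sham. It thus passed the sham level at day 10, which Cdr1 did not, and its near-identical copies make its reads uncertain.

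The 5 libraries held between 42261793 and 48013846 reads by the steps in their low values. Ribosomal RNA loci took 29.0% to 40.6% of these in the stroke libraries, against 44.4% in sham, and the mitochondrial genome took 2.75% to 6.02%, against 3.98% in sham. These shares enter every RPKM value, and their part in the folds is covered by the scaling values given above.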

How the data were processed

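Per the labels' protocols, RNA of pooled punches was extracted with Trizol and sequenced after a total RNA library preparation. GRCm38, HISAT2 2.1.0, StringTie 1.3.4d and Trimmomatic 0.36 are named in the submitters' processing notes. The annotation, the use of strand and the handling of reads shared by genes are not stated in what was used here. For every gene in each library, the authors deposited 1 RPKM value, and, per the file headers, a GFOLD value per pair of libraries, which is a log2 fold shrunk for low reads.

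Members were matched by the name column. Identifiers of 19158 genes were found in GENCODE mouse release 21. Reads were recovered as RPKM times exon length, and 90.4% to 90.5% of values below 5000 reads were whole within 0.02 of a read. For Cdr1 and C230004F18Rik, the smallest length that gave whole reads was used in place of the GENCODE length. Even numbers made up 52.7% to 54.3% of those below 50, which does not show that both mates were counted. Fold, filter and limit are stated with the results; ratio intervals were computed with scipy 1.17.1 and checked on simulated data. PCR copies are not independent molecules, so intervals cover counting error only. A count test across genes was not run, since each group is 1 library. Other settings were pseudocounts of 0.1 and 0.5 RPKM, limits of 1.5-fold and 4-fold, no filter, a floor of 5 RPKM, and median-of-ratios, trimmed-mean-of-M-values and rescaled values without mitochondrial, ribosomal, small RNA and predicted genes. The GFOLD limit and the RPKM ratio without pseudocount were added after seeing the data.

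The members and lists were chosen with earlier results of these data known. Of each list, up to 4 genes with the largest absolute log2 fold at any time were named, and 2 genes of nearest pattern for members other than those near or below 1 RPKM. Some genes that this rule names are not reported here.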

Additional observations from a re-analysis of the deposited data

How the results depend on the processing

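Of the 9 genes, none beyond the limit changed direction under these settings. The sign of 1 of 36 folds of the 9 genes changed with median-of-ratios scaling, 1 with trimmed-mean-of-M-values scaling and 3 with the rescaled values, all of C230004F18Rik or of Mirg at day 3. The number of the 9 genes beyond 2-fold moved from 1 to 2 at 4 hours with a pseudocount of 0.1 RPKM or with the RPKM ratio without pseudocount, which add Mirg, and with a limit of 1.5-fold, which adds Rian. At day 1 it was 2 with 1.5-fold, which adds Malat1, and 0 with 4-fold. At day 3 the RPKM ratio without pseudocount gave 1, Miat. Over all genes and the 4 times in order, counts beyond the limit were 1212, 1375, 2101 and 1105 with a pseudocount of 0.1, 2748, 2508, 3505 and 1434 with 1.5-fold, and 38, 62, 229 and 116 with 4-fold. The rescaled values gave 114, 349 and 783 at the first 3 times, a pseudocount of 0.5 gave 663 at 4 hours, and a floor of 5 RPKM gave 363 at day 10. The cause of these moves was not tested. Leaving out a replicate was not possible with 1 library per group. No paired analysis was possible because each group is 1 library. Read numbers of 83 to 145 for C230004F18Rik at its smallest length, 101 to 334 for Miat, 157 to 361 for Mirg and 311 for Cdr1 at 4 hours set the width of their intervals.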

Other observations

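Among other long noncoding RNAs known from brain, 35 were listed, 23 were in the table and 11 were analysed. H19, an imprinted RNA, had 0.0826 RPKM at 4 hours, 0.610 on day 1, 4.69 on day 3 and 3.53 on day 10, against 0.310 RPKM in sham. Mir142hg, the host of a microRNA of blood cells, had 0.162, 0.562, 2.11 and 2.79 RPKM at the 4 times, against 0.165 RPKM in sham. Both passed the 2-fold limit at day 3 and day 10, the times at which microglia and macrophage markers were higher. The RNA 2900097C17Rik had 37.8 RPKM at 4 hours, 19.2 on day 1, 20.8 on day 3 and 36.3 on day 10, against 38.4 RPKM in sham, with log2 folds of -0.96 on day 1 and -0.85 at day 3. Mir22hg, a microRNA host, had 3.37 RPKM at 4 hours against 1.23 RPKM in sham and lay within 1.17 to 1.39 RPKM at the later times. What these share with the genes above was not tested.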
